A study of Mus musculus with 19 samples.

Results

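The kallikreins are a family of secreted serine proteases, and Spink5 encodes LEKTI, the multi-domain inhibitor that holds several of them in check in skin. Described here are 10 genes of 34807 in the table: the kallikreins Klk5, Klk6, Klk7, Klk8, Klk9, Klk10, Klk11, Klk13 and Klk14, and Spink5. They were chosen by symbol, from the Ensembl identifiers of the table, and all 10 passed the filter on low counts. The tissue was bulk mouse skin and skin tumour from female animals. In the tumour mice a BRAFV600E allele was switched on, at 7 to 20 weeks of age, by a tamoxifen-inducible Cre under the Ivl promoter (6 tumours, labelled Ivl:BRAFV600E), the Krt5 promoter (5 tumours, K5) or the Krt14 promoter (4 tumours, K14). Normal skin came from 4 samples labelled WT, without the induced allele. The tumours are labelled squamous cell carcinoma. Ivl marks committed and suprabasal keratinocytes, while Krt5 and Krt14 mark the basal layer. In the study the inducing agent was tamoxifen for Ivl and 4-hydroxytamoxifen for K5 and K14 mice, and lesions of Ivl mice arose on the back and also on paws, ears and lips, while K5 and K14 tumours arose on the treated back. The labels give no site for single tumours. In the study, tumours of Ivl mice also arose later after induction and grew more slowly than those of K5 and K14 mice. In a comparison of Ivl with K5 or K14 tumours, agent, time since induction, growth rate and Cre line cannot be told apart. The site may differ between them as well. The 9 tumours of K5 and K14 mice form 1 group below, K5/K14, and are compared with each other at the end.

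In epidermis, kallikreins are made by keratinocytes as they differentiate and are secreted as inactive precursors near the surface, where they activate one another and cut the desmosomal proteins that hold corneocytes together. KLK5, KLK7 and KLK14 are the proteases best known for this shedding of the stratum corneum, and KLK5 can start the cascade. LEKTI binds them in a pH-dependent way, and loss of Spink5 causes Netherton syndrome, with a leaky and inflamed skin barrier.

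The 9 kallikrein genes lay in a single cluster, chr7:43690418-43851181 of GRCm38 (160.8 kb, plus strand), in the order Klk14, Klk13, Klk12, Klk11, Klk10, Klk9, Klk8, Klk7, Klk6, Klk5. Klk12 is the only other one of the 10 protein-coding genes there and is given below as a neighbour. Spink5 lies on another chromosome. What the kallikreins share, and where they part in the bonds they cut, can be read from the coding stretch around the catalytic serine. It is shown for that reason, 5′ to 3′, from the GENCODE transcripts (GRCm38), with 2 codons in capitals: the first lies in the pocket that holds the side chain next to the cut bond, and the second encodes the catalytic serine.
Klk5: GACtcctgccagggtgatTCCggaggtcct
Klk7: AACacgtgcaatggtgacTCAggggggccc
Klk14: GACtcctgtcagggtgatTCTgggggaccc
Klk6: GATtcctgtcagggtgatTCTggaggtccc
Klk8: GACacgtgccagggtgacTCAggaggccct
Klk9: GGCtcttgccagggtgacTCTgggggaccc
Klk10: GACtcttgccagagtgacTCCggtggcccc
Klk11: GACtcctgtcagggtgacTCTggaggcccc
Klk13: GACtcctgtgagggtgatTCTgggggccca

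The first capital codon stood for aspartate, the residue of trypsin-like proteases that cut after arginine or lysine, in 7 of the 9 (Klk5, Klk6, Klk8, Klk10, Klk11, Klk13 and Klk14). It stood for asparagine in Klk7, a chymotrypsin-like protease, and for glycine in Klk9. In every one of the 9 the stretch crossed the last exon junction of the transcript used. In Klk7 its first 12 bases lay at chr7:43813355-43813366 (exon 5) and the remaining 18 at chr7:43815297-43815314 (exon 6). The genes are related but not alike in sequence. Of the 50-base windows of their transcripts, 0 were shared with another gene for 9 of the 10 members, and 5 of 1172 (0.43%) for Klk14, so that reads were unlikely to be split between paralogs. On the opposite strand, the transcript 2310002F09Rik overlaps 382 exon bases of Klk8 and 287 of Klk14, and whether strand was used in the counting is not stated.

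The table held 45715309 to 72609771 counts per library. These totals lie above the reads per library given in the study's methods and come from adjusted counts, so they are not read as sequencing depth. Values are given as CPM, that is counts scaled to library size and TMM factor, and fold changes as log2 with standard errors from edgeR. Ivl tumours 1, 2 and 3 and K5 tumour 1 stood apart. Their mean came within 0.1 log2 of the mean of the remaining 15 libraries, skin included, for 96.58% of 13954 genes, against 21.09% when the 4 K14 tumours and 6.392% when the 4 skin libraries were treated in the same way. Libraries were sequenced at different times, in a batch of 4 and a batch of 15, and the deposited counts had been adjusted for batch. The labels do not say which libraries formed the batch of 4, so it cannot be told whether it was these, nor how far the adjustment set their values over 19 libraries. For the 10 members the mean of the 4 differed from that of the other 15 by -0.09 to 0.07 log2. The main results are therefore given over 19 libraries and again within the 15, which hold 3 Ivl, 8 K5/K14 and 4 skin libraries. The labels do not say that replicates came from separate animals, so p-values measure the spread between these samples, which may be technical. In bulk tissue, fewer cells of a type and less RNA per cell cannot be told apart.

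All 10 genes rose in both tumour groups against normal skin, with the widest change in Klk14 in both and the narrowest in Klk5 in Ivl and in Spink5 in K5/K14 tumours. Against skin, edgeR called 10 of 10 members in Ivl tumours, all higher, where 35.9% of 32031 genes tested were called and 20.4% were called higher. In K5/K14 tumours it also called 10 of 10, all higher, where 62.2% of genes were called and 23.2% were called higher. The median log2 fold change of the members was 3.1 in Ivl and 3.64 in K5/K14 tumours, beside -0.46 and -0.60 for all genes tested. Values did not overlap between tumours and skin for 9 of 10 members in Ivl tumours (13.2% of all genes, higher) and 9 of 10 in K5/K14 tumours (16.7%, higher). The exceptions were Klk6 in Ivl and Klk10 in K5/K14 tumours. Within the 15 libraries 10 of 10 were called higher in each group (22.2% and 23.9% of 31971 genes), and 10 of 10 did not overlap (22.3% and 17.3%). Their log2 fold changes then ran from 2.40 (Spink5) to 8.13 (Klk14) in Ivl and from 2.15 (Spink5) to 6.23 (Klk14) in K5/K14 tumours. The comparisons share the 4 skin samples, so they are set side by side below and not counted as separate evidence.

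**Figure D1:**
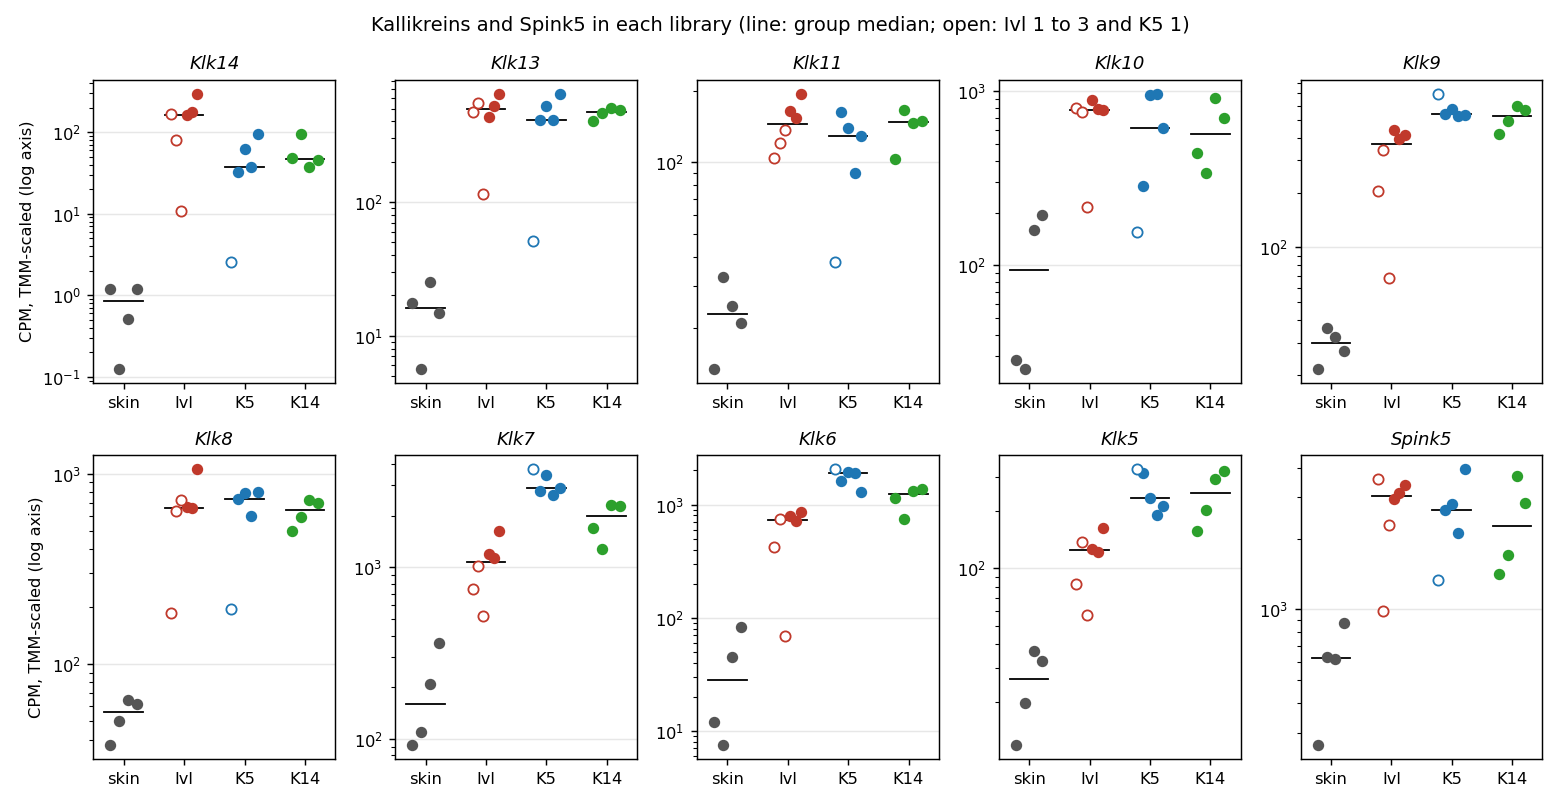
CPM (log axis) of each of the 10 genes in each library, by group, with a line at the group median and open points for Ivl tumours 1 to 3 and K5 tumour 1. Skin libraries lie under all tumours in 8 of the 10 panels, the exceptions being Klk6 and Klk10. The open points of Klk13 and Klk14 in K5 tumour 1 (51.5 and 2.54 CPM) lie far below the other K5 tumours.

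Klk5 (ENSMUSG00000074155, chr7:43841971-43851181), the trypsin-like protease that can activate the others, stood at 11.9, 19.8, 37.1 and 32.7 CPM in skin samples 1 to 4. In Ivl tumours it ranged from 57.3 to 162 CPM (median 124) and in K5/K14 tumours from 156 to 330.3 CPM (median 235). Neither tumour range met that of skin, and skin samples 3 and 4 were above 1 and 2. In Ivl tumours Klk5 rose by 2.17 ± 0.33 log2 (± SE, adjusted p = 5e-05), or 4.52-fold. In K5/K14 tumours it rose by 3.31 ± 0.34 (adjusted p = 1.43e-06), or 9.89-fold.

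Klk7 (ENSMUSG00000030713, chr7:43811294-43816359), the chymotrypsin-like protease of corneocyte shedding, was the most abundant kallikrein per kb of exon in skin and in both tumour groups. Skin samples 1 to 4 held 91.9, 110.1, 209 and 364 CPM. It ranged from 520.1 to 1633 CPM (median 1078) in Ivl and from 1286 to 3731 CPM (median 2642) in K5/K14 tumours. Skin sample 4 was the highest of the 4 and still lay under the lowest tumour, Ivl tumour 3. The rise was 2.43 ± 0.40 log2 in Ivl tumours (adjusted p = 0.000102) and 3.73 ± 0.42 in K5/K14 tumours (adjusted p = 1.92e-06).

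Klk14 (ENSMUSG00000044737, chr7:43690418-43695536), a trypsin-like protease that acts beside Klk5 in the same cascade, had its lowest levels in skin, at 1.2, 0.124, 0.515 and 1.18 CPM, from 11 to 121 counts. Ivl tumours ranged from 10.7 to 297 CPM (median 164) and K5/K14 tumours from 2.54 to 96 CPM (median 46.1). All 15 tumours lay above all 4 skin samples, but the tumours themselves spread widely, K5 tumour 1 being at 2.54 CPM and Ivl tumour 6 at 297. Its log2 fold changes of 7.62 ± 1.11 (adjusted p = 4.76e-05) and 6.07 ± 1.02 (adjusted p = 0.000103) were the largest of the 10 in each group. The change in Ivl tumours amounts to 197-fold, and within the 15 libraries it was 8.13 ± 0.71 log2.

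Klk6 (ENSMUSG00000050063, chr7:43824499-43832030) and Klk8 (ENSMUSG00000064023, chr7:43797577-43803826), trypsin-like proteases also known as neurosin and neuropsin from the nervous system, were strongly raised too. Klk6 was at 12, 7.46, 44.8 and 82.1 CPM in skin, from 68.5 to 861 CPM (median 726) in Ivl tumours and from 741 to 2052 CPM (median 1378) in K5/K14 tumours. Ivl tumour 3 fell within the range of skin and the other 5 Ivl tumours lay above it. The log2 fold change of Klk6 was 4.03 ± 0.70 in Ivl (adjusted p = 0.000193) and 5.34 ± 0.74 in K5/K14 tumours (adjusted p = 1.28e-05), the latter second only to Klk14. Klk8 was even in skin, at 37.4, 49.8, 64.8 and 61.9 CPM, and ranged from 184 to 1055 CPM (median 661) in Ivl and from 195 to 804 CPM (median 698) in K5/K14 tumours. Ivl tumour 1 and K5 tumour 1 were the low ones in their groups, at 184 and 195 CPM, both still above skin. Its changes were close in size, 3.61 ± 0.42 and 3.55 ± 0.41 log2 (adjusted p = 1.82e-05 and 2.25e-06).

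Klk9 (ENSMUSG00000047884, chr7:43791891-43796757), the member with the glycine codon in the stretch above, held 21.4, 36.1, 32.4 and 27.1 CPM in skin. It ranged from 68.2 to 442 CPM (median 368) in Ivl and from 417 to 698 CPM (median 541) in K5/K14 tumours, and no tumour reached down to skin. The rise was 3.41 ± 0.38 and 4.23 ± 0.39 log2 (adjusted p = 1.82e-05 and 9.14e-07), the smallest adjusted p of the members in K5/K14 tumours.

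Klk10 (ENSMUSG00000030693, chr7:43781035-43785410), also called NES1 for its expression in normal epithelium, was uneven in skin, with 28.7, 25.3, 159 and 193 CPM, so that samples 3 and 4 stood well above 1 and 2. Ivl tumours ranged from 216 to 892 CPM (median 785) and K5/K14 tumours from 156 to 971 CPM (median 619). K5 tumour 1 lay below skin samples 3 and 4, and every other tumour lay above skin. Its rises of 2.80 ± 0.65 and 2.56 ± 0.62 log2 had the largest adjusted p of the members (adjusted p = 0.00256 and 0.002).

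Klk11 (ENSMUSG00000067616, chr7:43774604-43779263), or hippostasin, and Klk13 (ENSMUSG00000054046, chr7:43712567-43727534) both passed without overlap. Klk11 was at 13.4, 33, 24.9 and 21 CPM in skin, from 104 to 194 CPM (median 145) in Ivl and from 38.1 to 167 CPM (median 139) in K5/K14 tumours, a rise of 2.66 ± 0.34 and 2.44 ± 0.33 log2 (adjusted p = 2.06e-05 and 7.61e-06). Klk13 was at 17.7, 5.6, 25.3 and 14.7 CPM in skin, from 114 to 647 CPM (median 494) in Ivl and from 51.5 to 647 CPM (median 464) in K5/K14 tumours. Its lowest tumours were K5 tumour 1 and Ivl tumour 3, and the other 13 lay between 401 and 647 CPM. The rise was 4.84 ± 0.63 and 4.77 ± 0.62 log2 (adjusted p = 2.18e-05 and 6.57e-06). Klk12, the neighbour between Klk13 and Klk11, rose in the same way, by 4.80 ± 0.65 and 3.96 ± 0.61 log2 (adjusted p = 2.63e-05 and 3.86e-05).

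Spink5 (ENSMUSG00000055561, chr18:43963235-44022501, plus strand, 32 exon blocks), which encodes the inhibitor, rose as well. It was at 265, 628, 613 and 873 CPM in skin samples 1 to 4, from 985 to 3593 CPM (median 3029.9) in Ivl tumours and from 1331 to 3937 CPM (median 2640.4) in K5/K14 tumours. Skin sample 1 was the lowest library and Ivl tumour 2 the lowest tumour. The log2 fold change was 2.19 ± 0.40 in Ivl tumours (adjusted p = 0.00026) and 2.07 ± 0.38 in K5/K14 tumours (adjusted p = 0.000182), or 4.57-fold and 4.19-fold. In K5/K14 tumours this was the smallest rise of the 10 members, and in Ivl tumours only the value for Klk5 was smaller, by less than its error.

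**Figure D2:**
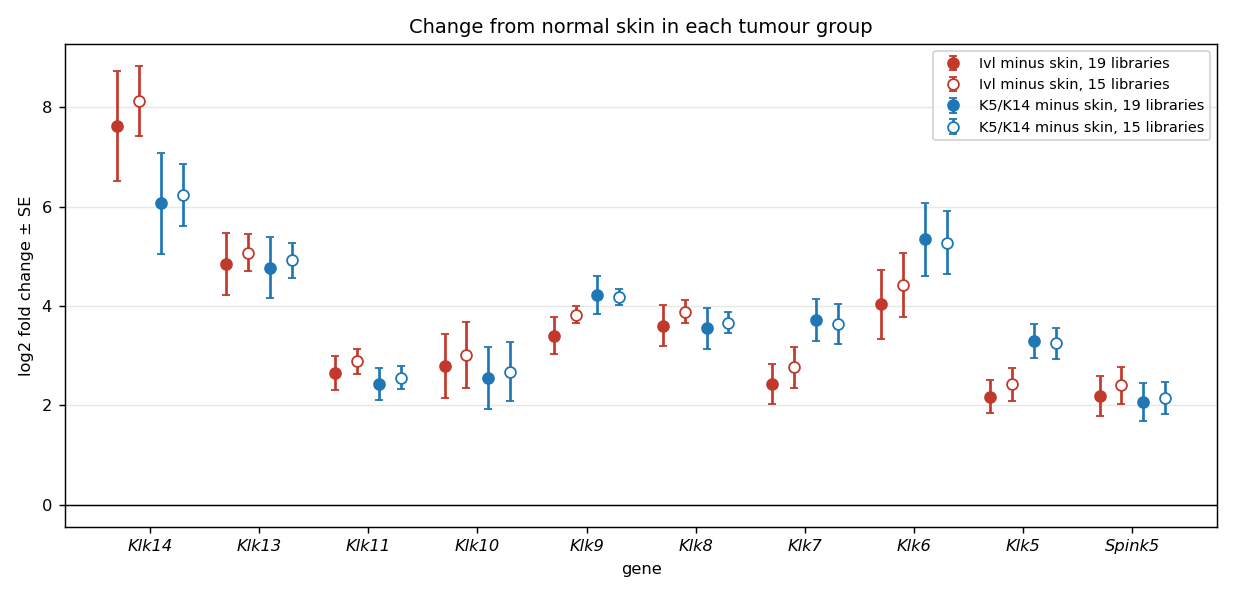
Log2 fold change against normal skin (y axis, ± SE) of each gene in Ivl and in K5/K14 tumours, with filled points over 19 libraries and open points within the 15. All 40 points lie above 0, from 2.07 for Spink5 in K5/K14 tumours to 8.13 for Klk14 in Ivl tumours.

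Per kb of exon, which allows levels of different genes to be ordered, Spink5 came first in skin at 124 ± 52.2 CPM per kb (SD, n = 4), followed by Klk7 at 102 ± 65.7 and Klk10 at 74 ± 63.6. Klk14 came last at 0.594 ± 0.415. In skin, 7 of the 9 gaps between neighbours in the order were smaller than the larger SD of the pair, and the exceptions were Klk11 above Klk13 and Klk13 above Klk14. In Ivl tumours within the 15 libraries (n = 3) the order was led by Klk7 at 698 ± 143, Spink5 at 657 ± 46 and Klk10 at 598 ± 44.9, and ended with Klk5 at 102 ± 16.7. In K5/K14 tumours (n = 8) Klk7 at 1276 ± 363 and Klk6 at 935 ± 259 led, followed by Spink5 at 551 ± 185 and with Klk14 last at 44.7 ± 20.0. In each of these tumour groups 4 of the 9 gaps were within the larger SD, among them that at the top. Over all 19 libraries the number was 8 in Ivl and 5 in K5/K14 tumours.

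Set against Spink5, the kallikreins together stood higher than in any skin sample in all 9 K5/K14 tumours and in 4 of 6 Ivl tumours. The summed level of the 9 was 236, 287, 598 and 798 CPM in skin samples 1 to 4, 1914 to 6047 CPM (median 4518) in Ivl and 4380.0 to 8631 CPM (median 6879.9) in K5/K14 tumours. Set over the Spink5 level of the same library, the sum gave a ratio of 0.888, 0.458, 0.975 and 0.914 in skin. The ratio was 0.839 to 4.45 (median 1.58) in Ivl tumours and 1.84 to 5.45 (median 2.61) in K5/K14 tumours. Ivl tumours 1 and 3, at 0.886 and 0.839, were the ones that lay within the range of skin. Within the 15 libraries the ratio was 1.65 ± 0.151 (SD, n = 3) in Ivl, 2.66 ± 0.651 (n = 8) among K5/K14 tumours and 0.809 ± 0.237 (n = 4) among skin samples, and no K5/K14 tumour fell to the highest Ivl tumour (1.84 against 1.79). With only Klk5, Klk7 and Klk14 in the sum, the ratio was 0.207 to 0.455 (median 0.399) in skin and 0.258 to 1.26 (median 0.483) in Ivl tumours. In K5/K14 tumours it was 0.717 to 3.05 (median 1.19). Within the 15 libraries this ratio was 0.528 ± 0.0826 in Ivl and 1.08 ± 0.258 in K5/K14 tumours, beside 0.365 ± 0.109 in skin. The lowest of those Ivl tumours, at 0.458, barely exceeded the highest skin sample. Both ratios were formed after the values were known and are given without a test. They compare RNA levels of genes of unequal length, so their change between libraries can be read and their absolute size cannot.

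**Figure D3:**
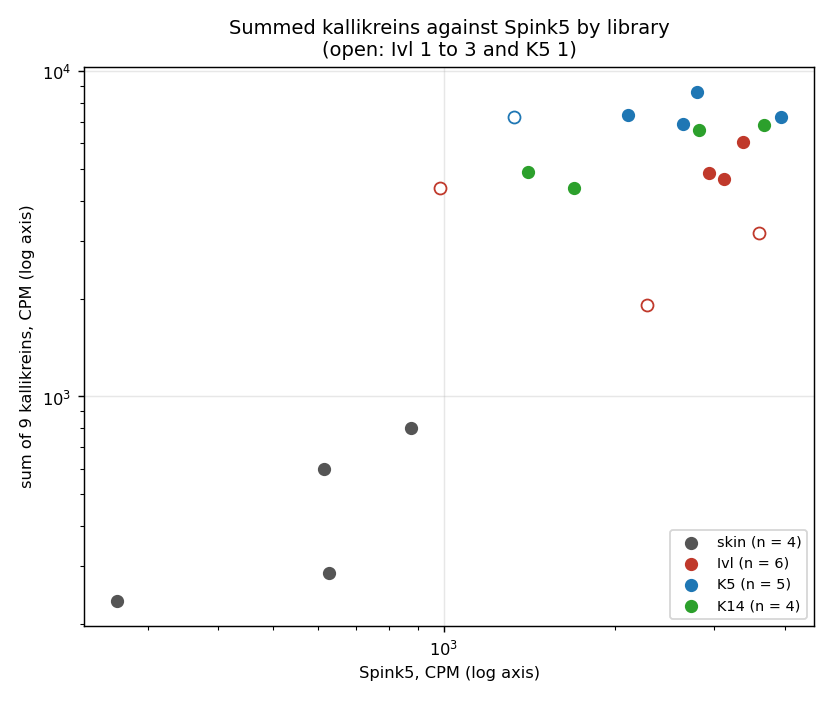
Summed CPM of the 9 kallikreins (y, log axis) against Spink5 CPM (x, log axis), 1 point per library, open for Ivl tumours 1 to 3 and K5 tumour 1. Skin lies at the lower left. K5 tumour 1 (1331 CPM of Spink5, 7254 CPM of kallikreins) and Ivl tumour 2 (985 and 4383) pair a low Spink5 with a high sum.

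Ivl tumours were then set against K5/K14 tumours, which also tests whether the change from skin differed between them. Over 19 libraries 2 of 10 members passed, Klk5 and Klk7, both lower in Ivl tumours, where 2.36% of all genes were called and 0.593% were called lower. Klk5 was at 115 CPM ± 38.2 (SD, n = 6) in Ivl and 251 CPM ± 65.8 (SD, n = 9) in K5/K14 tumours, a difference of -1.13 ± 0.26 log2 (adjusted p = 0.0321). Klk7 was at 1043 CPM ± 385 (SD, n = 6) and 2564 CPM ± 778 (SD, n = 9), a difference of -1.30 ± 0.31 (adjusted p = 0.0362). In both genes the ranges of the groups overlapped, by 1 Ivl tumour, number 6, that lay within the range of K5/K14 tumours. Values of 0 of the 10 members were free of overlap, against 0.656% of all genes.

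Neither call held without Ivl tumours 1, 2 and 3 and K5 tumour 1. Within the 15 libraries edgeR called 0 of 10 members (0.41% of genes), with 4 members at an unadjusted p under 0.05 (11.3% of genes). There Klk5 differed by -0.82 ± 0.30 (adjusted p = 0.308) and Klk7 by -0.87 ± 0.37 (adjusted p = 0.388). Leaving out 1 tumour of the 19 libraries also ended the calls, while the differences stayed at -1.26 to -1.01 log2 for Klk5 and -1.47 to -1.18 for Klk7. Klk5 did not pass without K5 tumour 1, 2, 3 or 5 or without K14 tumour 3 or 4 (adjusted p = 0.0514 to 0.062), and passed in the other 9 of 15 fits (adjusted p = 0.0253 to 0.0498). Klk7 did not pass without any of these, nor without Ivl tumour 1, 2 or 3 or K5 tumour 4 (10 of 15 fits, adjusted p = 0.0533 to 0.0707).

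Klk14 went the other way. Ivl tumours held 148 CPM ± 96.6 (SD, n = 6) and K5/K14 tumours 50.8 CPM ± 29.9 (SD, n = 9), a difference of 1.55 ± 0.61 log2 that did not pass (adjusted p = 0.159). Within the 15 libraries the Ivl tumours were at 163, 175 and 297 CPM and the K5/K14 tumours ranged from 32.3 to 96 CPM (median 46.8). The values did not overlap there, the only such member (2.34% of all genes, higher in Ivl), and the difference was 1.90 ± 0.45 log2 (adjusted p = 0.099), which misses the threshold of 0.05. Klk12, next but one to Klk14 in the cluster, did not overlap either within the 15 libraries (1.09 ± 0.31, adjusted p = 0.166).

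The other members did not pass. Klk6 was at 599 CPM ± 301 (SD, n = 6) in Ivl and 1485 CPM ± 424 (SD, n = 9) in K5/K14 tumours (-1.31 ± 0.50 log2, adjusted p = 0.141), and Klk9 at 311 CPM ± 146 (SD, n = 6) and 549 CPM ± 76.9 (SD, n = 9) (-0.82 ± 0.27, adjusted p = 0.0977). Differences of Klk8, Klk10, Klk11, Klk13 and Spink5 ranged from 0.06 to 0.24 log2 with errors of 0.25 to 0.47, so that a difference of 1 in either direction lay beyond 2 errors for Klk8, Klk11, Klk13 and Spink5. For Klk10 (0.24 ± 0.47) a difference of 1 towards Ivl lay within 2 errors. The 5 members with an unadjusted p under 0.05 (21.1% of all genes) were Klk5, Klk6, Klk7, Klk9 and Klk14.

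**Figure D4:**
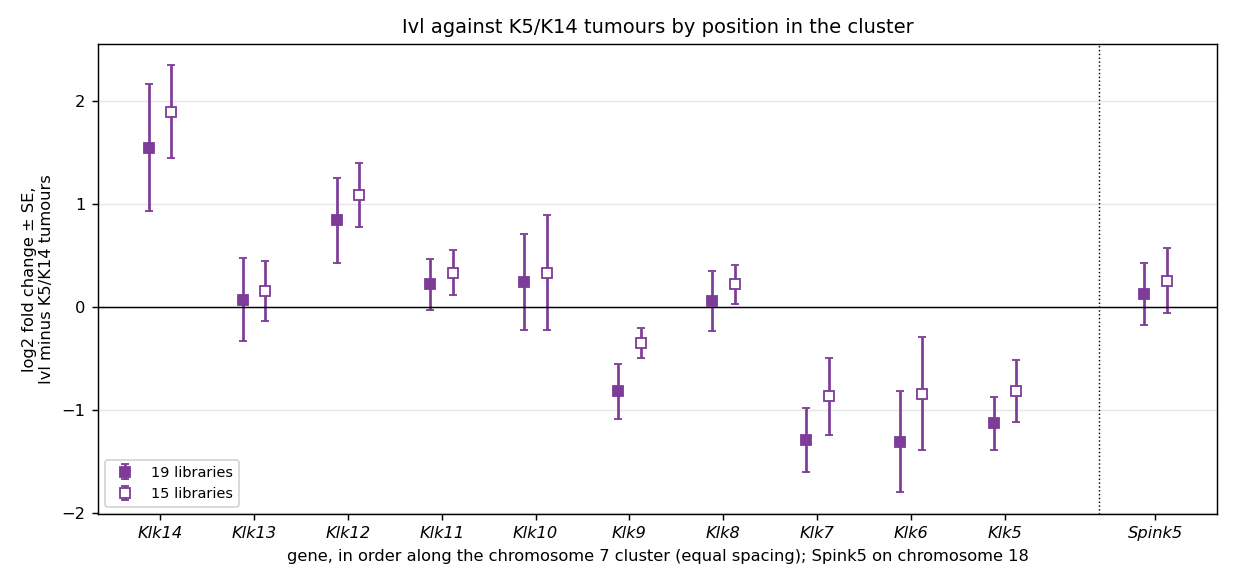
Log2 fold change of Ivl minus K5/K14 tumours (y axis, ± SE) for the 10 protein-coding genes of the cluster in chromosomal order and for Spink5, filled over 19 and open within 15 libraries. Filled points stand at 1.55 for Klk14 at one end and -1.13 for Klk5 at the other, with the lowest at Klk6 (-1.31). The highest open point is Klk14 (1.90).

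Read along the cluster, the fitted differences were above 0 for Klk14, Klk13, Klk12, Klk11, Klk10 and Klk8 and below 0 for Klk9, Klk7, Klk6 and Klk5, over 19 libraries and within the 15, but the sign of Klk8 and of Klk13 turned when single libraries were left out (-0.13 to 0.25 and -0.0797 to 0.26). How members varied among tumours is given as Pearson's r of log2 CPM, a description over libraries that share a table and its batch adjustment. These values pool Ivl and K5/K14 tumours, so they include the difference between the groups just given. Over 15 tumours Klk5, Klk6, Klk7 and Klk9 correlated with each other at 0.85 to 0.96 (6 pairs), and Klk10, Klk11, Klk13 and Klk14 at 0.45 to 0.88 (6 pairs). The 16 pairs between these sets of 4 lay from -0.30 to 0.25. Within the 11 tumours outside the 4 libraries the first set had correlations of 0.65 to 0.94, the second spread from -0.15 to 0.58, and the pairs between them lay from -0.77 (Klk6 and Klk14) to 0.13. With each tumour taken as its deviation from the mean of its own group, Ivl or K5/K14, the ranges over 15 tumours were 0.73 to 0.94 in the first set, 0.42 to 0.94 in the second and -0.15 to 0.52 between them. Over the 11 they were 0.27 to 0.88, -0.41 to 0.69 and -0.46 to 0.71, so the 3 ranges overlapped there. The sets were chosen after the pooled values were seen, and Klk8 was left out of both. Over the 11 tumours its pooled r was 0.03 to 0.27 with the first set and 0.28 (Klk10) to 0.80 (Klk13) with the second.

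**Figure D5:**
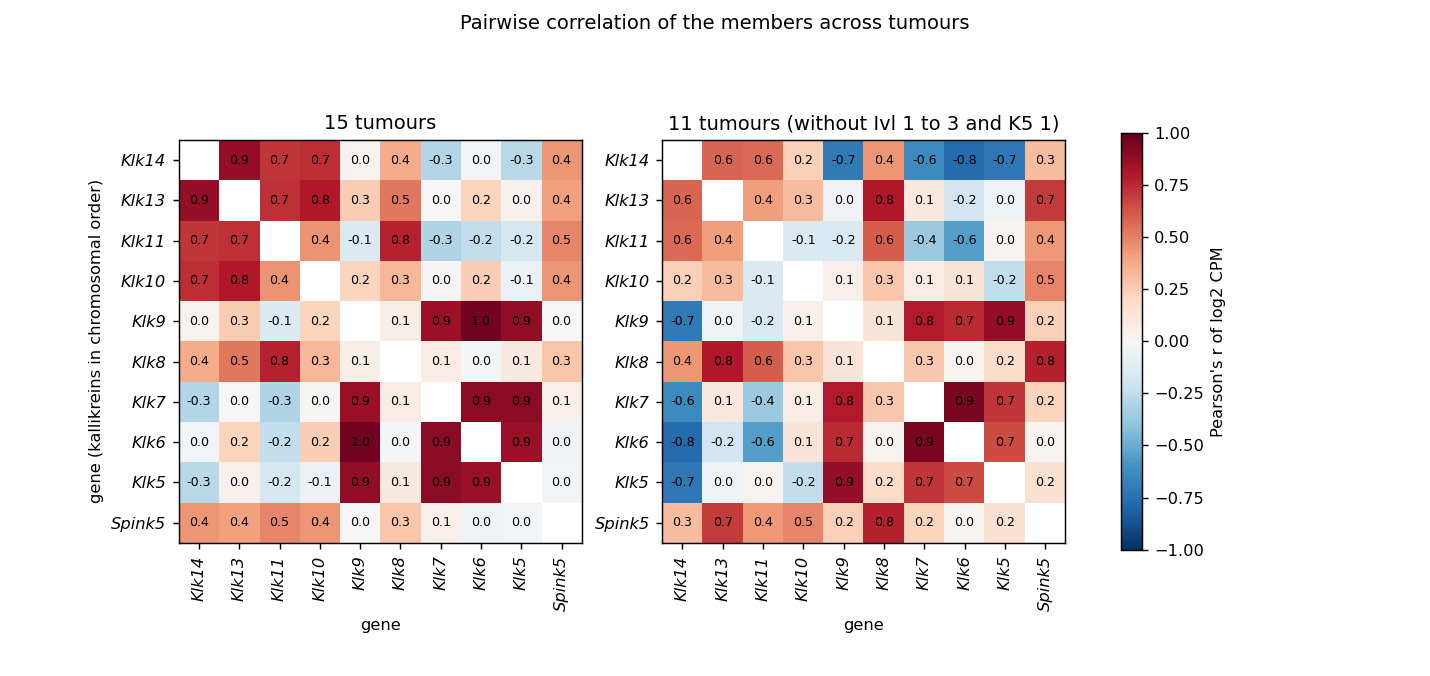
Pearson's r between members across tumours (colour and printed value; both axes list the genes, kallikreins in chromosomal order), over 15 tumours on the left and the 11 outside the set of 4 on the right. High values join Klk9, Klk7, Klk6 and Klk5 on both sides, with r from 0.65 to 0.94 on the right. Klk8, which stands between Klk9 and Klk7, interrupts them, with r from 0.03 to 0.27 on the right.

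Because the kallikreins moved together against skin, the 250 bases before their transcription starts were searched for 3 motifs on both strands, in the RefSeq promoter table (GRCm38.p6), where the 9 kallikreins had 11 starts. TGANTCA, the core of AP-1 sites, was in 0 of 11 windows and in 6.75% of 32851 windows of all genes. TATAAA was in 0 of 11 and in 12.4% of all. GGAA, the core of ETS sites, was in 11 of 11 and in 93.4% of all, so that most genes share it. The windows of Klk14 and Klk7, whose fitted differences between Ivl and K5/K14 tumours had opposite signs, are shown on the plus strand with GGAA or its reverse complement TTCC in capitals, at chr7:43690168-43690417 and chr7:43811044-43811293.
Klk14: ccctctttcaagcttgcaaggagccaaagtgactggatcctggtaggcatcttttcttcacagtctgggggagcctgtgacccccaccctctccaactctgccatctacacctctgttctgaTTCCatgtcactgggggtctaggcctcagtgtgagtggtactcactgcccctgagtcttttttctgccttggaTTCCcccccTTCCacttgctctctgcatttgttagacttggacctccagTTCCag
Klk7: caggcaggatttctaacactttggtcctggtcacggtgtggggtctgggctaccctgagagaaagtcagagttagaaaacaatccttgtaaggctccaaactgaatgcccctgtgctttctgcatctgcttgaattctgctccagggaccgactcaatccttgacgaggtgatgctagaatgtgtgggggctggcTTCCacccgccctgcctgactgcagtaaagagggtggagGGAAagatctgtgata

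Spink5 followed none of the kallikreins closely over the 15 tumours, with r from -0.03 to 0.49. Over the 11 it ranged from 0.02 (Klk6) to 0.78 (Klk8). The genes outside the members whose log2 CPM was most like the mean of the 9 kallikreins included, of 15357 compared over 19 libraries, Becn1 (r = 0.98), Dbnl (0.98), Krt6a (0.98) and Impdh1 (0.975). All of these were read over a set in which skin lies far below tumours. Over the 15 tumours they included Krt6a (0.93), Rangap1 (0.90), Dazap1 (0.89) and Nbeal2 (0.89). Krt6a, a keratin of wounded and hyperproliferative epidermis, was among them both times, though it has a near-identical copy and its counts are uncertain. Over the 11 tumours outside the set of 4 they were Hist1h4c (0.96), Il1f9 (0.93), Gng5 (0.92), Chp1 (0.90) and Grpel2 (0.89), without Krt6a.

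K5 tumours were then set against K14 tumours. edgeR called 0 of 10 members (0% of all genes), with 0 members at an unadjusted p under 0.05 (6.07% of genes) and 0 called by DESeq2. Klk7, chosen after its values were seen, was at 3731, 2792, 3434, 2642 and 2913 CPM in K5 tumours and at 1694, 1286, 2306 and 2274 CPM in K14 tumours. It was the only member whose values did not overlap (2.04% of all genes, higher in K5). The difference was 0.71 ± 0.36 log2 (adjusted p = 0.831). Differences of the other 9 members ranged from -0.34 to 0.61.

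Other genes of the pathway were read from 5 lists. Of 17 other kallikreins 12 were in the table and 8 were tested. In each tumour group Klk12 and Klk4 were higher, while 1 (Ivl) and 4 (K5/K14) were lower, and the median log2 fold change was -1.73 and -2.69, or -0.91 and -1.77 with genes at 0 in all tumours set to the bound that 3 counts per library give. Klk4, a protease of tooth enamel, went from a mean of 0.05 CPM in skin to 0.377 and 0.728 (adjusted p = 0.00684 and 0.000449), which stays low. Those that fell were Klk1b21 in both groups, which had no counts in any tumour and a mean of 0.224 CPM in skin, and Klk1, Klk1b24 and Klk1b1 in K5/K14 tumours. The genes that fell in Ivl tumours within the 15 libraries were Klk1 and Klk1b24, Klk1b21 missing the threshold (adjusted p = 0.0508), and in K5/K14 tumours Klk1b1 no longer passed. These close copies had group means under 1 CPM, and their counts are uncertain because such copies share reads.

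Of 22 further protease inhibitors 21 were tested. In each group 10 were higher and 1 lower, with a median log2 fold change of 1.0 and 0.87, beside -0.46 and -0.60 for all genes. The WAP-domain inhibitor Wfdc5 rose by 2.90 ± 0.39 and 2.77 ± 0.37 log2 (adjusted p = 2.22e-05 and 8.21e-06). The serpin Serpinb6c rose by 5.51 ± 0.74 and 7.05 ± 0.79, Wfdc12 by 6.43 in Ivl tumours, and Spint2, an inhibitor of membrane-bound serine proteases, by 0.86 in K5/K14 tumours. Slpi, a secreted leukocyte protease inhibitor, and Spink7, a relative of Spink5, were noted after their values were seen. Slpi went from a mean of 2.51 CPM in skin to 1231 and 1063, and Spink7 from 0.141 to 120.3 and 126. Serpina5 in Ivl and Spink6 in K5/K14 tumours were lower, both under 0.5 CPM in every group mean, and within the 15 libraries Serpina5 did not pass (adjusted p = 0.0581).

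Among 20 proteases that act with or upstream of kallikreins in epidermis, 15 were higher and 0 lower in Ivl tumours and 16 were higher and 1 lower in K5/K14 tumours (medians 1.76 and 2.1 log2, or 1.61 and 2.02 with the gene at 0 in all skin samples at its bound). Prss27 rose by 3.71 ± 0.48 in Ivl tumours, and Casp14, a protease of cornification, by 3.56 ± 0.44 in K5/K14 tumours. Tmprss13 rose by 1.62 and 1.77, and Prss8, or prostasin, by 1.41 and 1.84. The gene that fell was Hpn (-1.40), from 1.46 to 0.552 CPM, and within the 15 libraries it fell in Ivl tumours too. Between Ivl and K5/K14 tumours 1 of the 20 passed, Mep1b, higher in Ivl at 0.214 against 0.00659 CPM (adjusted p = 0.0483), and within the 15 libraries it did not pass (adjusted p = 0.098). There the 1 that passed was Tmprss11a, a membrane-bound serine protease, higher in Ivl at 176 against 43.8 CPM (2.01 ± 0.40 log2, adjusted p = 0.0492), which did not pass over 19 libraries (adjusted p = 0.122).

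The next list held 12 genes, of substrates and of related desmosomal and cytokine genes, not all of them known to be cut by kallikreins. Of these, 9 were higher in each tumour group, 1 was lower in Ivl and 2 were lower in K5/K14 tumours (medians 2.24 and 2.34 log2). Dsc1, a desmosomal cadherin of upper epidermis, rose by 2.86 ± 0.40 and 3.11 ± 0.39. Pkp1, a desmosomal plaque protein, rose by 1.81 and Dsg1b by 2.36 in Ivl tumours. Il1a rose by 4.21 and Cdsn, the corneodesmosin that kallikreins cut at the surface, by 2.45 in K5/K14 tumours. Flg2, a filaggrin relative, fell in both, from a mean of 831 CPM in skin to 97.7 and 229 (-3.09 ± 0.83 and -1.86 ± 0.72 log2, adjusted p = 0.00782 and 0.032). Dsg1c fell in K5/K14 tumours (-0.80). Within the 15 libraries 9 were higher and 2 lower in each group. The Dsg1 genes are close copies, so the division of reads among them is uncertain.

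Of the 4 protease-activated receptors and Tslp, a cytokine that keratinocytes release on PAR2 signalling, 2 of 5 were higher in Ivl tumours and 3 were higher and 1 lower in K5/K14 tumours. F2rl1, the receptor PAR2 that Klk5 and Klk14 activate, did not pass in either group over 19 libraries (-0.50 ± 0.24 and -0.11 ± 0.23 log2, adjusted p = 0.109 and 0.677). Within the 15 libraries it was lower in Ivl tumours, with a log2 fold change of -0.77 ± 0.24 (adjusted p = 0.013). It is named for its role, after its values were seen. F2r, the thrombin receptor, rose by 1.11 ± 0.40 and 2.23 ± 0.41, and in Ivl tumours it did not pass within the 15 libraries (adjusted p = 0.0707). Tslp rose by 4.40 ± 1.14 in Ivl and 7.45 ± 1.31 in K5/K14 tumours, from a mean of 0.487 CPM to 10.5 and 87.1 CPM (adjusted p = 0.0066 and 0.00016). F2rl3 was the 1 of 5 that differed between the tumour groups, lower in Ivl tumours (-1.79 ± 0.39 log2, adjusted p = 0.0299), and within the 15 libraries 0 of 5 passed (adjusted p = 0.0933).

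Against normal skin, markers of differentiating keratinocytes, the cells that make kallikreins, rose as the members did. All 10 of 10 such markers (Krt1, Krt10, Ivl, Lor and others) were higher in both tumour groups, with median log2 fold changes of 2.68 and 2.52. Their summed level was 5062 to 8691 CPM in skin, 13885 to 61564 in Ivl and 15185 to 52382 in K5/K14 tumours, and none was at 0. The median of this sum was higher in Ivl (40042 CPM) than in K5/K14 tumours (27837 CPM). That of the summed kallikreins was lower in Ivl (4518 against 6880 CPM). Between the tumour groups 1 of the 10 markers passed over 19 libraries, the gene Ivl, which was lower in Ivl tumours, and 0 passed within the 15. Basal keratinocyte markers passed higher than in skin for 4 of 7 in Ivl and 6 of 7 in K5/K14 tumours. The basal marker Krt15 was lower in K5/K14 tumours, and within the 15 libraries it was lower in both groups. The sum of the basal markers was 4101 to 9077 CPM in skin, 10888 to 58778 in Ivl and 42941 to 66552 in K5/K14 tumours. Ivl tumour 3, the lowest Ivl tumour for Klk5, Klk6, Klk7, Klk9, Klk10, Klk13 and Klk14, had the lowest sum of differentiation markers among the Ivl tumours. It was not the lowest of them for Klk8 (724 CPM), Klk11 (136 CPM) or Spink5 (2282 CPM). Neutrophil markers were higher for 5 of 7 in each group, S100a8, S100a9, Cxcr2, Ly6g and Mmp9. Within the 15 libraries Mmp9 did not pass in Ivl tumours. The 7 summed to 11.3 to 53.8 CPM in skin, 109 to 6582 in Ivl and 1667 to 6699 in K5/K14 tumours. Of the 7, 1 was at 0 in all skin libraries. K5 tumour 1 was low for Klk8, Klk10, Klk11, Klk13 and Klk14. It was the highest library for Klk5, Klk6, Klk7 and Klk9 (330, 2052, 3731 and 698 CPM), and its differentiation sum was 17136 CPM. K5 tumour 4 had a lower one, 15185 CPM, with Klk10 at 971 CPM, the highest of the group, and a kallikrein sum of 7362 CPM. Sweat gland markers were higher for 1 of 5 in each group, Aqp5. Over 19 libraries none of the hair follicle, sebaceous, fibroblast, muscle, adipocyte or melanocyte markers was higher, and within the 15 the adipocyte marker Fabp4 was higher in Ivl tumours (2.98 ± 0.99 log2, adjusted p = 0.0221). Markers of several of these cell types were lower. In K5/K14 tumours 6 of 6 skeletal muscle markers fell (median log2 fold change -5.22), as did 4 of 8 sebaceous, 3 of 6 adipocyte, 2 of 5 sweat gland (Krt19 and Krt8), 1 of 10 hair follicle and 1 of 6 fibroblast markers. In Ivl tumours 1 of 8 sebaceous and 1 of 5 melanocyte markers fell. In the 15 libraries 5 of 5 melanocyte markers fell in K5/K14 tumours, and in Ivl tumours 4 of 5 melanocyte, 3 of 8 sebaceous, 2 of 6 adipocyte, 2 of 6 fibroblast, 2 of 5 sweat gland and 1 of 6 muscle markers fell. Hair follicle markers summed to 41.1 CPM in the lowest skin library (sample 2) and 5155 CPM in the highest (sample 1), both of which had low Klk6, Klk7 and Klk10. The part of these cell types in the results was not tested.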

How the data were processed

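Whole tissue of 4 normal skin samples and 15 tumours was sequenced. Per the study's methods and its processing notes, the authors trimmed reads with Trim Galore, checked them with FastQC 0.11.8, aligned them to GRCm38 with HISAT2 2.1.0 and counted them per gene with featureCounts of Subread 1.6.3. The authors then adjusted the counts for sequencing batch with ComBat-seq before the table was deposited, so its values are estimated counts, all of them whole. No column of other samples was in the table. Symbols were matched to 34694 of 34807 identifiers. Whether strand was used in counting is not given in the sources used here.

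A gene entered the tests if any 1 library held 5 counts or more (32031 genes, 2776 dropped). Samples were grouped by their labels, with K5 and K14 together. edgeR 4.0.16 in R 4.3.3 was used for 4 comparisons, with TMM scaling, quasi-likelihood tests, and Benjamini-Hochberg adjustment over all genes (threshold 0.05). All p-values, the leave-one-out ones included, are from edgeR unless DESeq2 1.42.0 is named. The fit was tested on simulated data. The members and gene lists were chosen with earlier results of these data known. Beyond the members, at most 3 genes per list, direction and comparison against skin are named, those with the smallest adjusted p. Exceptions are the other kallikreins lower in K5/K14 tumours, of which all 4 are named, and genes marked as named after their values were seen. A gene among those most like the kallikreins is not reported here. Alternatives were other size factors, DESeq2, other filters, 15 libraries, the 4 libraries as a covariate, a replicate block and leave-one-out. Leave-one-out fits within the 15 libraries were added after the data were seen. With table totals of 45715309 to 72609771 counts per library, low counts limit genes near the filter only. Replicate pairs differed beyond sampling noise (chi-square of at least 25.89 per degree of freedom).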

Additional observations from a re-analysis of the deposited data

Results flagged for a closer look

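In a group of 4 to 10 samples, Dixon's criterion was used to set the lowest or highest library apart from the rest. It did so in 7 of 40 member and group pairs. For independent, normally spread values it does so in about 1 in 20. The members were read in the same libraries, so the count is not set against that rate. Each library set apart was the lowest of its group. The value is the gap to the next library as a share of the group's range on log2 CPM. In Ivl tumours it was 0.717 for Klk6, 0.886 for Klk10 and 0.768 for Klk13, all in Ivl tumour 3. For Klk8 it was 0.708 in Ivl tumour 1, and for Spink5 it was 0.65 in Ivl tumour 2. In K5 tumours it was 0.79 for Klk8 and 0.821 for Klk13, both in K5 tumour 1. All 7 lay in the 4 libraries that stood apart across genes. On linear CPM only Klk10 in Ivl tumour 3 (0.803) passed the criterion and the other 6 did not, among them Klk6 (0.445) and Spink5 (0.498).

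The change from skin differed between Ivl and K5/K14 tumours for 2 members by the edgeR test of the difference. It was smaller in Ivl tumours by -1.13 log2 for Klk5 (adjusted p = 0.0321) and by -1.3 log2 for Klk7 (adjusted p = 0.0362), and neither difference passed within the 15 libraries (adjusted p = 0.308 and 0.388).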

How the results depend on the processing

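Against skin, 10 of 10 members were called higher in both tumour groups under every alternative and with every library left out in turn. Between Ivl and K5/K14 tumours the 2 calls, Klk5 and Klk7, gave way to 0 within the 15 libraries, 0 with the 4 libraries as a covariate (-1.09 and -1.26 log2, adjusted p = 0.0517 and 0.0552) and 0 with a replicate block (-1.28 and -1.52, adjusted p = 0.088 and 0.0774), against -1.13 and -1.30 as reported. The differences thus kept their size under the covariate and the block. With single libraries left out the count was 0 to 2, and within the 15 libraries it was 0 in all 11 fits. DESeq2 called Klk9 as well (-0.83, adjusted p = 0.0441). With the replicate block the difference of Klk8 turned to -0.23 and that of Klk13 to -0.0345. With single libraries left out it ran from -0.13 to 0.25 for Klk8 and from -0.0797 to 0.26 for Klk13, and within the 15 from -0.0425 to 0.34 and from -0.0131 to 0.28. The cause was not tested. The replicate numbers did not pair the samples (same-numbered pairs r = -0.368 to 0.237, 9 of 25 over 0.1).

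Over all genes, calls in Ivl tumours against skin went from 11515 to 17566 within the 15 libraries, and in K5/K14 tumours from 19916 to 11786 with the stricter filter (at least 1 CPM in at least 4 libraries). Between the tumour groups 756 calls became 2133 (DESeq2), 131 (15 libraries), 449 (covariate), 46 (block) and 127 to 1328 (single libraries left out). Between K5 and K14 tumours 0 became 173 (DESeq2) and 17 (15 libraries). The share of calls that were higher in Ivl tumours than in skin was 56.8%, and 45.6% with DESeq2 size factors, which moved the median gene from -0.46 to -0.59. It was 40.4% within the 15 libraries, 45.6% with the covariate and 70.7% with the replicate block (7700 calls). Scaling by library total alone moved 6 skin means by more than their SD (Klk5 38.0, Klk8 80.8, Klk9 44.5, Klk11 35.0, Klk13 24.2 and Spink5 891 CPM). Low counts limited only Klk14 in skin.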
